A study of Homo sapiens with 7 samples.

Results

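Matrix metalloproteinases (MMP), their tissue inhibitors (TIMP) and the ADAMTS proteases were read across 7 libraries of a human embryonic stem cell line on its way to heart muscle. The members were chosen by symbol alone, as every MMP or ADAMTS symbol ending in a number (with an optional A or B) and TIMP1 to TIMP4. There were 47 of them, namely 24 MMP, 4 TIMP and 19 ADAMTS genes, among 23262 genes with values.

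The line is H3, with eGFP reporting NKX2-5, an early heart transcription factor gene, and mCherry reporting alpha-MHC, the heart myosin encoded by MYH6; all 7 libraries, controls included, carry both. The number after NKX2 in the line's label differs from library to library, and all 7 were treated as the same line. RNA was taken from undifferentiated cells (hESC, day 0) and from cells of day 3 (CD13+/ROR2+, labelled as mesoderm progenitors, and CD13-/ROR2-, labelled as endoderm progenitors). Further libraries came from day 7 (CD13+/ROR2+ cells split into NKX2-5+, labelled cardiac progenitors, and NKX2-5-, of unknown type) and day 14 (CD13+/ROR2+/NKX2-5+ cells split into aMHC+, labelled cardiomyocytes, and aMHC-, of unknown type). Below, the day 7 and day 14 fractions are called by their last marker; the labels leave unsaid when CD13 and ROR2 were used to gate them. Each group is 1 library from 1 line, so that no difference below has a replicate check and no p-value or standard deviation is given.

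MMPs are zinc enzymes that cut collagens and other matrix proteins; most are made as inactive precursors, and some stay anchored in the cell membrane. TIMPs bind the active site of MMPs and block it. ADAMTS enzymes are secreted relatives with thrombospondin repeats, which cut proteoglycans such as versican, trim procollagens or have narrower substrates. In the heart these families remodel the cardiac jelly, the valves and the fibrous matrix.

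The promoters of 5 members are shown because they stand for the extremes of what was measured, with MMP15 and MMP14 ordered differently over the libraries, TIMP1 the most abundant member, and MMP7 and MMP10 from a gene cluster with little or no RNA. Sequences are from RefSeq (GRCh38.p14), 250 bases before to 50 after the annotated start, 5′ to 3′ on the gene's strand, and 27 of the 47 members had an entry there. Capitals mark the AP-1 motif TGANTCA, the TATA box TATAAA and the GC box GGGCGG, searched on both strands; by their letters the different motifs cannot overlap.
MMP15 (chr16:58025504-58025803, plus strand): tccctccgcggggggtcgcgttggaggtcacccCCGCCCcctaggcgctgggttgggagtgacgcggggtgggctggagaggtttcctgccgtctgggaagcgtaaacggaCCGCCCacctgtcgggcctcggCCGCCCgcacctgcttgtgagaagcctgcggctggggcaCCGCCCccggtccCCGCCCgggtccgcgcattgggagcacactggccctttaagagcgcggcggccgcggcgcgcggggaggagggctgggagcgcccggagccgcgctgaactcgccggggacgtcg
MMP14 (chr14:22836335-22836634, plus strand): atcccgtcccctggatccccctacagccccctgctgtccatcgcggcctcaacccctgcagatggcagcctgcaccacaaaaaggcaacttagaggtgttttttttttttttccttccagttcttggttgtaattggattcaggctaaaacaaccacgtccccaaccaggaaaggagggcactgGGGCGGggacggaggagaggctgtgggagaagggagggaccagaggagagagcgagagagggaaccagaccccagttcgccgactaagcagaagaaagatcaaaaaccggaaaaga
TIMP1 (chrX:47582186-47582485, plus strand): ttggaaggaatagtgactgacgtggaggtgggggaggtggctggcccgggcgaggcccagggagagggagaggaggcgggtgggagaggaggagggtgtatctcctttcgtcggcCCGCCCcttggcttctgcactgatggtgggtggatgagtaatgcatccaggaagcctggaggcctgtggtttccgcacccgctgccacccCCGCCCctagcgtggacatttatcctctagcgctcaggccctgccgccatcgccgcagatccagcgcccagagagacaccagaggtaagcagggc
MMP7 (chr11:102530698-102530997, minus strand): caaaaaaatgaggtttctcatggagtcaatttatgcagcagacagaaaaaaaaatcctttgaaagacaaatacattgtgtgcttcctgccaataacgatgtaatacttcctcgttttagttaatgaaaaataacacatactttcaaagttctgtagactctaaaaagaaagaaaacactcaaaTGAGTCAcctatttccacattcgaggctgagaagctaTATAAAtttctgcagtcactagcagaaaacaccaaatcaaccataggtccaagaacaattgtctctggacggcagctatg
MMP10 (chr11:102780579-102780878, minus strand): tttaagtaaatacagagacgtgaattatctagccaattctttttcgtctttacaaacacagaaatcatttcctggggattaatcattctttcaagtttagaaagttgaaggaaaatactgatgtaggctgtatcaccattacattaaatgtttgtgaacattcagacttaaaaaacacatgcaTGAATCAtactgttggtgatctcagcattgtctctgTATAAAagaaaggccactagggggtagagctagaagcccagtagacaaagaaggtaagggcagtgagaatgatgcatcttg

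MMP15 held 5 GC boxes, TIMP1 held 2 and MMP14 held 1, and none of these windows held a TATA box or an AP-1 motif. MMP7 and MMP10 each held 1 AP-1 motif and 1 TATA box and no GC box. Their cluster was not uniform in this. Of its other entries, MMP20 held an AP-1 motif and a TATA box, MMP8 a TATA box only, and MMP27 none of these motifs. The GC content was 75.3% for MMP15, 65% for TIMP1 and 55% for MMP14, but 35.7% for MMP7 and 36.3% for MMP10, beside a median of 58.7% over 35116 promoters of this length. Among those promoters 45% held a GC box, 11.5% a TATA box and 7.71% an AP-1 motif. Of the 28 windows of members (ADAMTS10 had 2), 19 held a GC box, 7 a TATA box and 4 an AP-1 motif. These matches describe letters in a window and say nothing of factors bound there.

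Values are FPKM, which scale reads by transcript length and library total, so that levels of different genes can be set side by side. The FPKM of all genes summed to between 108220 (day 7 NKX2-5+) and 414781 (day 7 NKX2-5-). Small RNA and histone symbols held 66.5% of that sum in day 7 NKX2-5- and 34.1% in hESC, against 3.42% to 22.3% in the other libraries. Absolute depth is not given by the file; the labels state more than 12000000 reads of 50 bases per library. From steps between low values, relative depth ran from 0.602 (day 7 NKX2-5+) to 3.09 (day 14 aMHC-) times that of hESC, while day 7 NKX2-5- gave no sharp estimate. The day 7 NKX2-5+ library also lay below the others in general, by 0.43 on the log2 scale against NKX2-5- and by 0.69 against day 3 CD13+/ROR2+. Median-ratio scaled values are therefore added where they change a call, and for some orders that turn. All 10 cardiomyocyte markers on the list used were at 1 FPKM or more in each of the 4 libraries of days 7 and 14. In the day 3 CD13-/ROR2- library, labelled endoderm progenitors, 1 of 10 liver and yolk sac markers reached 1 FPKM. That list, mostly of plasma protein genes, does not test the label. The 7 pluripotency markers summed to 770 FPKM in this library, against 798 in hESC. Of 9 early mesoderm markers, 8 reached 1 FPKM in day 3 CD13-/ROR2-, with a sum of 148 FPKM, against 9 and 660 FPKM in day 3 CD13+/ROR2+. APLNR (8.79 against 321) and MIXL1 (82.0 against 210) made up much of that gap. T (18.7 against 7.32) and KDR (16.2 against 8.04) went the other way.

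Of the 47 members, 11 reached 5 FPKM in at least 1 library, 19 peaked between 1 and 5, 12 stayed under 1 in all libraries and 5 were listed at 0 throughout, all as deposited. Among all genes 33.2% reached 5 FPKM, against 23.4% of the members. TIMPs stood out by level, with 3 of 4 at 5 FPKM or more, against 4 of 24 MMPs and 4 of 19 ADAMTS genes.

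**Figure D1:**
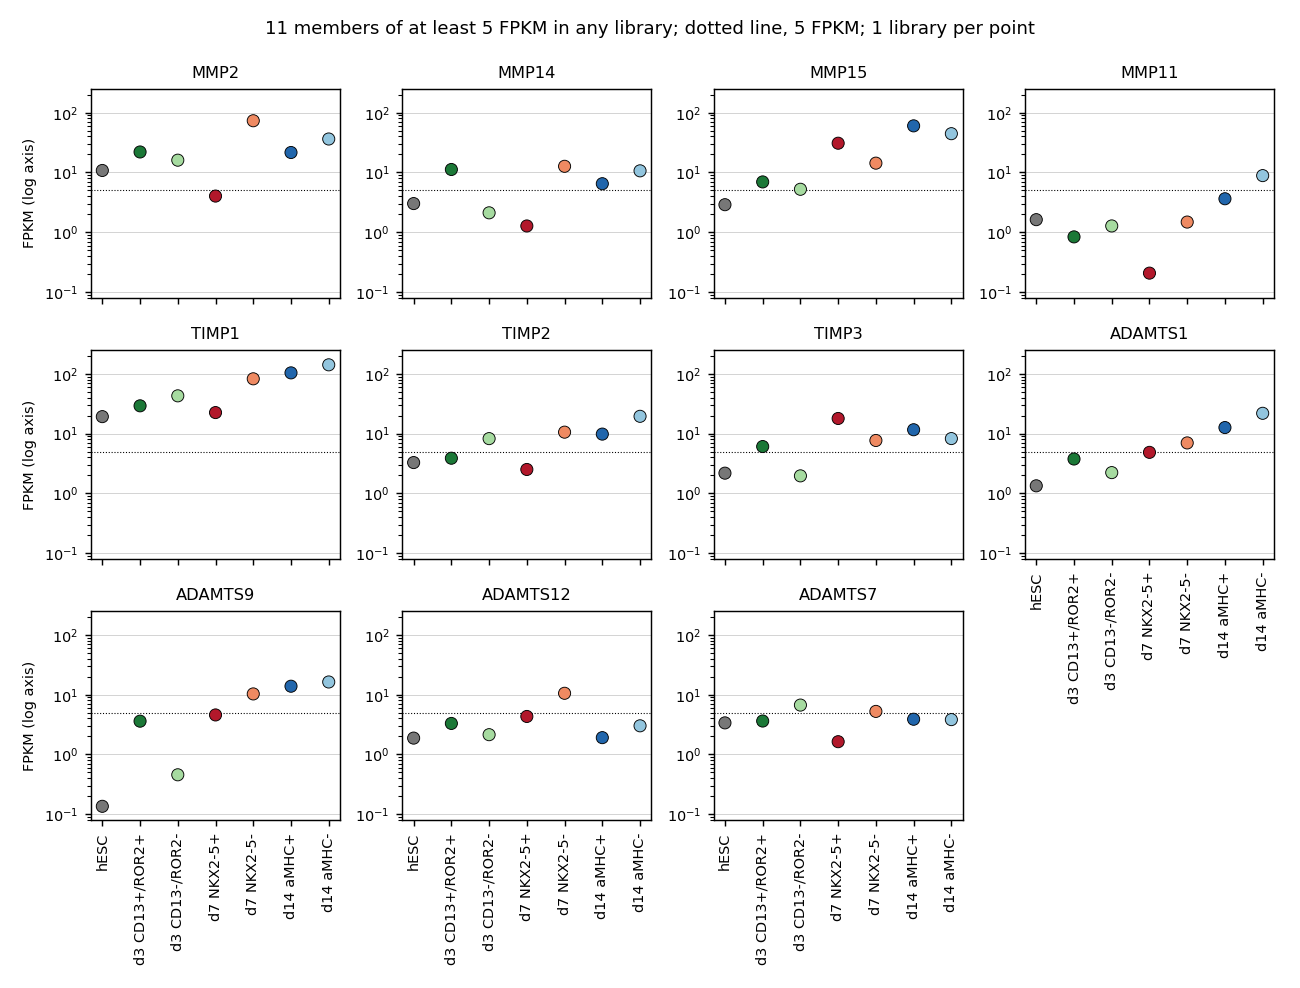
FPKM (log axis) of the 11 members that reached 5 FPKM, 1 point per library, with a dotted line at 5 FPKM. MMP2, MMP14, MMP11, TIMP2 and ADAMTS7 were lowest in day 7 NKX2-5+ (TIMP2 not after either scaling, MMP14 not when rescaled to the same sum), where TIMP3 was highest at 17.9 FPKM, and ADAMTS9 spanned 0.136 to 16.3 FPKM.

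The gelatinase MMP2, which digests denatured collagen and the type IV collagen of basement membranes, was the most abundant MMP in 4 libraries. It stood at 10.8 FPKM in hESC, 22.0 in day 3 CD13+/ROR2+, 16.1 in CD13-/ROR2-, 4.03 in day 7 NKX2-5+, 73.4 in day 7 NKX2-5-, 21.6 in day 14 aMHC+ and 36.3 in day 14 aMHC-. Day 7 thus held both its lowest and its highest library. The other gelatinase, MMP9, known from white blood cells and bone, was highest in hESC at 1.08 FPKM and at 0.505 or less elsewhere, with a listed 0 in day 7 NKX2-5+.

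MMP14, the membrane-type enzyme that activates the MMP2 precursor on the cell surface, was at 3.02 FPKM in hESC, 11.2 in day 3 CD13+/ROR2+, 2.11 in CD13-/ROR2-, 1.27 in day 7 NKX2-5+, 12.7 in day 7 NKX2-5-, 6.49 in day 14 aMHC+ and 10.7 in day 14 aMHC-. As deposited, its lowest and highest libraries were the same as those of MMP2; rescaled to the same sum it was lowest in day 3 CD13-/ROR2- (2.07, against 2.14 in day 7 NKX2-5+). It differed from MMP2 on day 3, where CD13+/ROR2+ had 5.31 times the MMP14 level of CD13-/ROR2- but 1.37 times the MMP2 level.

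MMP15, another membrane-type enzyme, was ordered differently. It was at 2.89 FPKM in hESC, 6.95 in day 3 CD13+/ROR2+, 5.23 in CD13-/ROR2-, 30.9 in day 7 NKX2-5+, 14.3 in day 7 NKX2-5-, 60.3 in day 14 aMHC+ and 44.6 in day 14 aMHC-. Its 4 highest libraries were those of days 7 and 14, and in each of these pairs the fraction positive for the heart reporter had the higher level. In the same pairs MMP2 and MMP14 were lower in the reporter-positive fraction. The cardiomyocyte markers also summed higher in that fraction of each pair. The part of heart muscle cells in the levels of MMP15, and of TIMP3 below, was not tested.

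The ratio of MMP2 to MMP15 within a library does not depend on how libraries are scaled to each other. It was 3.74 in hESC, 3.17 in day 3 CD13+/ROR2+ and 3.07 in CD13-/ROR2-. On day 7 it was 5.12 in NKX2-5- and 0.131 in NKX2-5+, and on day 14 it was 0.815 in aMHC- and 0.358 in aMHC+. MMP2 RNA was therefore above MMP15 RNA in 4 libraries and below it in the other three. MMP15 made up 81.6% of the MMP sum in day 7 NKX2-5+ and 59.5% in day 14 aMHC+, against 9.29% in hESC.

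**Figure D2:**
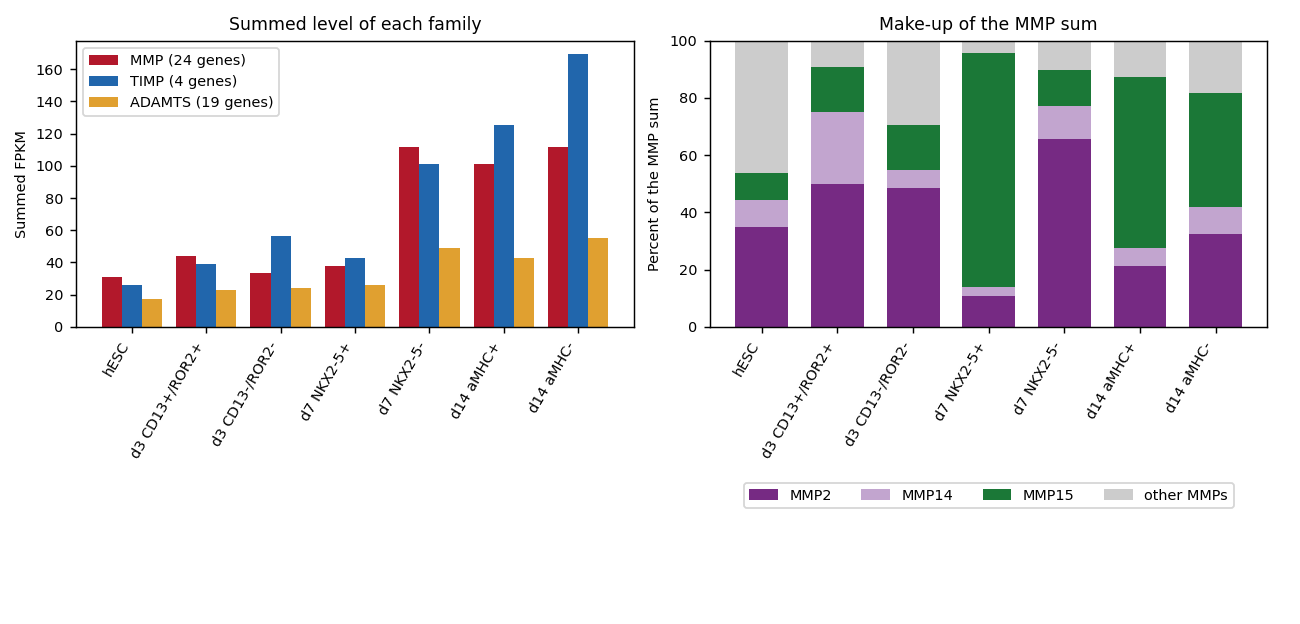
Left, summed FPKM of the 24 MMP, 4 TIMP and 19 ADAMTS genes in each of the 7 libraries; right, percent of the MMP sum held by MMP2, MMP14, MMP15 and the other MMPs. MMP2 held 65.7% in day 7 NKX2-5- and 10.7% in NKX2-5+, where MMP15 held 81.6%.

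MMP11, a secreted enzyme that is activated inside the cell by furin, was at 1.62 FPKM in hESC, 0.837 in day 3 CD13+/ROR2+, 1.28 in CD13-/ROR2-, 0.207 in day 7 NKX2-5+, 1.48 in day 7 NKX2-5-, 3.63 in day 14 aMHC+ and 8.86 in day 14 aMHC-. Both day 14 libraries stood above the rest. FURIN itself was highest in the same pair, at 17.6 and 26.3 FPKM against 3.21 to 9.43 elsewhere. MMP11 overlaps CHCHD10 on the opposite strand in GENCODE v29, without overlap of their exons, and the kit used does not mark strand. CHCHD10 was highest (27.4 FPKM) in day 7 NKX2-5+, where MMP11 was lowest, and the part of shared reads was not tested.

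The remaining membrane-type genes peaked before differentiation or on day 14. MMP16 was at 4.64 FPKM in hESC and between 0.898 and 2.30 in the sorted fractions. MMP17 and MMP25, whose proteins are held by a lipid anchor, were at 2.04 and 3.20 FPKM in hESC. MMP17 was listed at 0 in day 7 NKX2-5+ and in both day 14 libraries, and MMP25 was at 0.135 FPKM or less in all 4 libraries of days 7 and 14. MMP24 stayed between 0.417 and 1.88 FPKM.

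The nearly identical copies MMP23A and MMP23B, of which RefSeq lists MMP23A as a pseudogene, were low in hESC, day 3 and day 7 NKX2-5+ libraries (0.351 FPKM or less). MMP23B stood at 2.22 FPKM in day 7 NKX2-5-, 3.54 in day 14 aMHC+ and 4.91 in day 14 aMHC-, and MMP23A at 1.74, 2.20 and 2.98. The split of reads between the copies is uncertain, so the values of 1 copy should not be read without the other.

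A run of 9 neighbouring MMP genes on chromosome 11 (RefSeq order MMP7, MMP20, MMP27, MMP8, MMP10, MMP1, MMP3, MMP12, MMP13) includes the classic collagenases and stromelysins. As deposited, 0 of the 9 reached 1 FPKM in any library, and 4 (MMP7, MMP20, MMP27 and MMP8) were listed at 0 in all 7. The highest value of the run was 0.927 FPKM, for the collagenase MMP1 in day 7 NKX2-5- (1.00 after median-ratio scaling and 1.11 rescaled to the same sum). MMP1 was at 0.130 in day 7 NKX2-5+ and at 0.0373 or less in the other libraries. Outside this run 11 of 15 MMPs reached 1 FPKM. MMP26, which lies elsewhere on that chromosome, was also at 0 throughout, and MMP19, MMP21 and MMP28 peaked at 0.938, 0.426 and 0.364 FPKM.

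TIMP1, a secreted inhibitor of most MMPs, was the most abundant member in every library except day 7 NKX2-5+, where MMP15 was above it. TIMP1 stood at 19.2 FPKM in hESC, 29.1 in day 3 CD13+/ROR2+, 42.8 in CD13-/ROR2-, 22.5 in day 7 NKX2-5+, 82.5 in day 7 NKX2-5-, 104 in day 14 aMHC+ and 141 in day 14 aMHC-. Day 14 held the 2 highest libraries as deposited, but after rescaling to the same sum without small RNA and histone genes aMHC+ (89.7) lay below day 7 NKX2-5- (98.4). Against day 3 CD13+/ROR2+ the day 7 NKX2-5+ level was 0.771 times as high, but after median-ratio scaling it was the higher one (32.7 against 26.4), so that no direction is given for this step.

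TIMP2, which also helps MMP14 to activate the MMP2 precursor, followed the same fractions. It was at 3.28 FPKM in hESC, 3.87 in day 3 CD13+/ROR2+, 8.24 in CD13-/ROR2-, 2.51 in day 7 NKX2-5+, 10.6 in day 7 NKX2-5-, 9.81 in day 14 aMHC+ and 19.5 in day 14 aMHC-. Both TIMP1 and TIMP2 were higher in the negative than in the positive fraction of each pair, on days 3, 7 and 14.

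TIMP3, which binds to the matrix and also inhibits ADAMTS proteases, had the opposite sign in each of those pairs. Its levels were 2.18 FPKM in hESC, 6.07 in day 3 CD13+/ROR2+, 1.96 in CD13-/ROR2-, 17.9 in day 7 NKX2-5+, 7.67 in day 7 NKX2-5-, 11.6 in day 14 aMHC+ and 8.25 in day 14 aMHC-. The positive fraction was 3.09 times as high on day 3, 2.33 times on day 7 and 1.41 times on day 14. TIMP3 lies within SYN3 on the opposite strand, without overlap of their exons. SYN3 was highest in day 3 CD13-/ROR2- (13.0 FPKM), where TIMP3 was lowest, and the part of shared reads was not tested.

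TIMP4, known from adult heart, did not follow the heart fractions. It was at 1.36 FPKM in hESC, 0.202 in day 3 CD13+/ROR2+, 3.25 in CD13-/ROR2-, 0.116 in day 7 NKX2-5+, 0.109 in day 7 NKX2-5-, listed at 0 in day 14 aMHC+ and 0.140 in day 14 aMHC-. It lies within SYN2 on the opposite strand, and SYN2 was also highest in day 3 CD13-/ROR2- (3.65 FPKM) and lower on days 7 and 14 (0.501 or less). Reads from overlapping exons cannot be told apart without strand, but the exons of none of these pairs overlap in GENCODE v29. The doubt concerns reads outside those annotated exons, and the annotation behind the deposited values is not named. TIMP1 lies within SYN1, which stayed at 4.74 FPKM or less.

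As a family the TIMPs summed to 26.0 FPKM in hESC, 39.3 in day 3 CD13+/ROR2+, 56.3 in CD13-/ROR2-, 43.0 in day 7 NKX2-5+, 101 in day 7 NKX2-5-, 125 in day 14 aMHC+ and 169 in day 14 aMHC-. The MMPs summed to 31.1, 44.2, 33.2, 37.8, 112, 101 and 112 FPKM in the same order. Some orders turned after median-ratio scaling. The MMP sum was then 55.1 in day 7 NKX2-5+ against 40.0 in day 3 CD13+/ROR2+, and 96.4 in day 14 aMHC+ against 91.9 in aMHC-. The TIMP sum was then 62.6 in day 7 NKX2-5+ against 53.8 in day 3 CD13-/ROR2-. The TIMP sum was 0.837 times the MMP sum in hESC, 0.889 times in day 3 CD13+/ROR2+ and 0.904 times in day 7 NKX2-5-. It was above the MMP sum in day 3 CD13-/ROR2- (1.70 times), day 7 NKX2-5+ (1.14 times), day 14 aMHC+ (1.23 times) and aMHC- (1.51 times). These are RNA sums and do not measure enzyme or inhibitor activity.

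ADAMTS1, which cuts versican and aggrecan, was at 1.34 FPKM in hESC, 3.76 in day 3 CD13+/ROR2+, 2.22 in CD13-/ROR2-, 4.85 in day 7 NKX2-5+, 6.98 in day 7 NKX2-5-, 12.6 in day 14 aMHC+ and 21.8 in day 14 aMHC-. Every library of a later day stood above every library of an earlier one. ADAMTS5, its neighbour on chromosome 21 and also a versicanase, was at 1.59 FPKM in day 7 NKX2-5- and 0.148 or less elsewhere.

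ADAMTS9, another versicanase needed for heart development, was at 0.136 FPKM in hESC, 3.61 in day 3 CD13+/ROR2+, 0.457 in CD13-/ROR2-, 4.59 in day 7 NKX2-5+, 10.3 in day 7 NKX2-5-, 13.9 in day 14 aMHC+ and 16.3 in day 14 aMHC-. It was low in hESC and in the day 3 negative fraction and higher in every other library. The day 3 pair differed 7.89-fold, the largest quotient of that pair among the 11 abundant members. Together ADAMTS1 and ADAMTS9 made up 8.46% of the ADAMTS sum in hESC, 32.3% in day 3 CD13+/ROR2+, 62.0% in day 14 aMHC+ and 69.5% in aMHC-.

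The substrate gene VCAN, encoding versican, was at 35.7 FPKM in hESC, 25.9 in day 3 CD13+/ROR2+ and 83.7 in CD13-/ROR2-. Day 7 was highest, with 126 for NKX2-5+ and 108 for NKX2-5-, followed by 64.3 and 67.4 in day 14 aMHC+ and aMHC-. Its level was thus lower on day 14 than on day 7, whereas ADAMTS1 was higher. ADAMTS9 was higher on day 14 as deposited, but after rescaling to the same sum day 7 NKX2-5- (12.3 FPKM) was above day 14 aMHC+ (12.0). The other versican-cutting genes were low, with ADAMTS15 at most 3.06 FPKM (day 7 NKX2-5-), ADAMTS4 at most 1.53 (day 3 CD13+/ROR2+), ADAMTS8 at most 1.08 (hESC) and ADAMTS20 at most 0.634 (hESC).

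ADAMTS12 and ADAMTS7, which cut the cartilage matrix protein COMP, had different patterns. ADAMTS12 was at 1.88 FPKM in hESC, 3.31 in day 3 CD13+/ROR2+, 2.14 in CD13-/ROR2-, 4.33 in day 7 NKX2-5+, 10.6 in day 7 NKX2-5-, 1.91 in day 14 aMHC+ and 3.02 in day 14 aMHC-, so that its 2 highest libraries were those of day 7. ADAMTS7 was at 3.38 FPKM in hESC, 3.63 in day 3 CD13+/ROR2+, 6.71 in CD13-/ROR2-, 1.64 in day 7 NKX2-5+, 5.26 in day 7 NKX2-5-, 3.89 in day 14 aMHC+ and 3.83 in day 14 aMHC-. ADAMTS7 has pseudogene copies that could share its reads, and its range was narrow (4.10-fold).

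ADAMTS6 and ADAMTS19 were among the members that peaked on day 7 at a few FPKM. ADAMTS6 had 3.33 FPKM in day 7 NKX2-5+, 3.91 in day 7 NKX2-5-, 2.12 and 1.5 in day 14 aMHC+ and aMHC-, and 0.704 or less before. ADAMTS19 was at 2.79 FPKM in hESC, 1.96 in day 3 CD13+/ROR2+, 3.32 in CD13-/ROR2-, 4.07 in day 7 NKX2-5+, 0.464 in day 7 NKX2-5-, listed at 0 in day 14 aMHC+ and 0.0131 in day 14 aMHC-. Unlike ADAMTS12, it was higher in NKX2-5+ than in NKX2-5- cells (8.77-fold). After median-ratio scaling its value in day 7 NKX2-5+ passed the 5 FPKM minimum of the size rule described below.

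Procollagen-trimming members stayed low. ADAMTS2 was at 2.86 FPKM in day 3 CD13-/ROR2- and 2.58 in day 7 NKX2-5-, an order that turned after median-ratio scaling (2.74 and 2.79) and after rescaling to the same sum (2.80 and 3.08). ADAMTS3 was highest in day 3 CD13+/ROR2+ (2.28 FPKM), and ADAMTS14 reached 0.302 in hESC. ADAMTS10, ADAMTS16 and ADAMTS18 peaked at 1.22, 1.54 and 1.22 FPKM. ADAMTS13, which cuts von Willebrand factor, and ADAMTS17 peaked at 0.582 and 0.186 FPKM. In the day 7 NKX2-5+ library 20 of 47 members were listed at 0 (42.6%), against 6 to 12 (12.8% to 25.5%) in the other libraries. Of all genes 33.4% were at 0 there, against 23.4% to 27.4% elsewhere, and the part of depth in these counts was not tested.

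**Figure D3:**
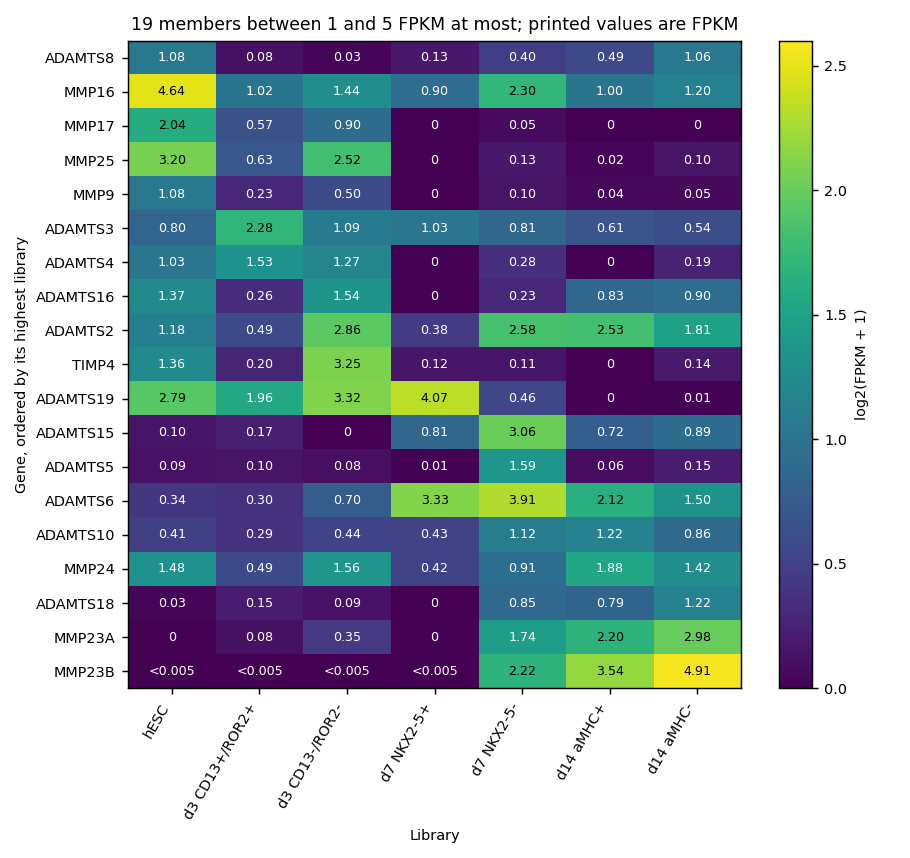
The 19 members that peaked between 1 and 5 FPKM, ordered by the library in which each was highest; colour is log2(FPKM + 1) and the printed values are FPKM. MMP16, MMP17, MMP25 and MMP9 were highest in hESC, ADAMTS6 (as deposited, but day 7 NKX2-5+ after median-ratio scaling), ADAMTS15 and ADAMTS5 in day 7 NKX2-5-, and MMP23A and MMP23B in day 14 aMHC-.

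A size rule was then applied to 9 pairs of libraries. For each pair, 1 FPKM was added to both values and the log2 of their quotient was taken. A call needed a log2 ratio of 2 or more in size, that is 4-fold, and 5 FPKM or more on the higher side. A looser rule of 2-fold (a log2 ratio of 1) with the same minimum was added. The share of all 23262 genes called is given beside each count of members. All-gene counts rescaled to the same sum leave out the 1732 small RNA and histone symbols. Several pairs share a library, so their counts are not independent.

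In day 3 CD13+/ROR2+ over hESC, 0 of 47 members were called in either direction, where 1.13% of all genes were higher and 0.641% lower. At 2-fold 3 were higher (MMP14, MMP15 and TIMP3; 2.65% of all genes) and 0 lower (2.21%). ADAMTS9 had a log2 ratio of 2.02 but stayed under 5 FPKM. In CD13-/ROR2- over hESC, 0 members were called (0.357% of genes higher, 0.288% lower), and at 2-fold TIMP1 and TIMP2 were higher (2.06%) and 0 lower (1.75%).

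Between the 2 day 3 fractions, 0 members were called (0.933% of genes higher in CD13+/ROR2+, 0.641% lower). MMP14 lay just short with a log2 ratio of 1.97, and passed with a pseudocount of 0.1. At 2-fold MMP14 and TIMP3 were higher (2.45% of all genes) and 0 members lower (2.33%). The summed level of 10 fibroblast and matrix markers was 165 FPKM in the positive and 61.2 in the negative fraction, with 7 and 6 of 10 at 1 FPKM or more and DCN at 0 in the latter. FBLN1 held much of both sums (98.7 and 36.3 FPKM). COL1A1 (4.60 and 10.5) and POSTN (0.0697 and 0.259) were higher in the negative fraction. The part of cells with these markers in the MMP14 difference was not tested.

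From day 3 CD13+/ROR2+ to day 7 NKX2-5+, MMP15 was higher, with a log2 ratio of 2.0 (1 of 47 members; 1.06% of all genes), and MMP2 and MMP14 were lower (2 of 47; 2.2%). The log2 ratio was -2.20 for MMP2 and -2.43 for MMP14. Both lower calls were lost after median-ratio scaling (-1.61 and -1.97), where MMP15 (2.66) and TIMP3 were called higher. Rescaled to the same sum, MMP14 stayed lower (-2.05), MMP2 did not (-1.66), and MMP15, TIMP3 and ADAMTS6 were called higher. Over all genes the split of calls turned as well, from 247 higher and 512 lower as deposited to 404 and 282 after median-ratio scaling and 440 and 278 after rescaling to the same sum. A pseudocount of 5 left 0 calls. At 2-fold TIMP3 joined the higher members, 2 in all (2.04% of genes), and the 2 lower ones stood beside 9.27% of all genes.

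From day 3 CD13+/ROR2+ to day 7 NKX2-5-, 0 members passed 4-fold (1.37% of genes higher, 0.941% lower). At 2-fold MMP2, TIMP1, TIMP2, ADAMTS9 and ADAMTS12 were higher (5 of 47; 2.8% of all genes) and 0 lower (3.91%). MMP14 stood at 12.7 against 11.2 FPKM in this step, next to its lower value in the NKX2-5+ fraction of the same day. From the earlier to the later library the fibroblast and matrix markers summed to 165 FPKM (7 of 10 at 1 FPKM or more) and 880 (10). Liver and yolk sac markers summed to 34.2 (4 of 10; ALB, APOC3, TTR and FGB at 0) and 386 (7), and endothelial markers to 6.08 (2 of 9; EMCN at 0) and 46.3 (8). FBLN1 (98.7 to 50.7 FPKM), HNF4A (1.65 to 0.555), FOXA2 (3.88 to 0.216) and VWF (1.14 to 0.377) went the other way. The part of cells with these markers in the 5 differences was not tested.

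By log2 ratio with 1 FPKM added, MMP2 in the day 7 pair had the widest gap among the members called. It was 73.4 FPKM in NKX2-5- against 4.03 in NKX2-5+ (log2 ratio -3.89 for NKX2-5+ over NKX2-5-) and MMP14 12.7 against 1.27 (-2.59). These were 2 of 47 members lower in NKX2-5+, beside 1.16% of all genes, and 0 higher, beside 0.434%. After median-ratio scaling the ratios were -3.55 and -2.36, and ADAMTS19 was called higher. The all-gene calls went from 101 higher and 270 lower to 166 and 208, and to 171 and 184 when rescaled to the same sum. With a pseudocount of 5 the call of MMP14 was lost.

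At 2-fold 7 members were lower in day 7 NKX2-5+ (MMP2, MMP14, TIMP1, TIMP2, ADAMTS7, ADAMTS9 and ADAMTS12; 3.92% of all genes) and 2 higher (MMP15 and TIMP3; 1.21%). The median log2 ratio of all 47 members was -0.31, beside -0.07 for all genes, many of them at or near 0. Among those that reached 5 FPKM in any library it was -1.12 for 11 members and -0.41 for 7716 genes. The general offset of this pair was -0.43, so the value of -0.31 is no shift of the members beyond it. Markers of other cells moved in the same direction. The 10 fibroblast and matrix markers summed to 76.1 FPKM in NKX2-5+ (7 at 1 FPKM or more) and 880 in NKX2-5- (10), and 9 endothelial markers to 6.42 (4) and 46.3 (8). Liver and yolk sac markers summed to 67.5 FPKM (6 of 10) and 386 (7 of 10), and epicardial markers to 2.03 (0 of 7) and 36.3 (4 of 7). HNF4A, FOXA2 and UPK3B were at 0 in NKX2-5+ and UPK1B in NKX2-5-. In bulk RNA, fewer cells of a type and less RNA per cell cannot be told apart, and the part of these cells in the MMP2 and MMP14 differences was not tested.

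**Figure D4:**
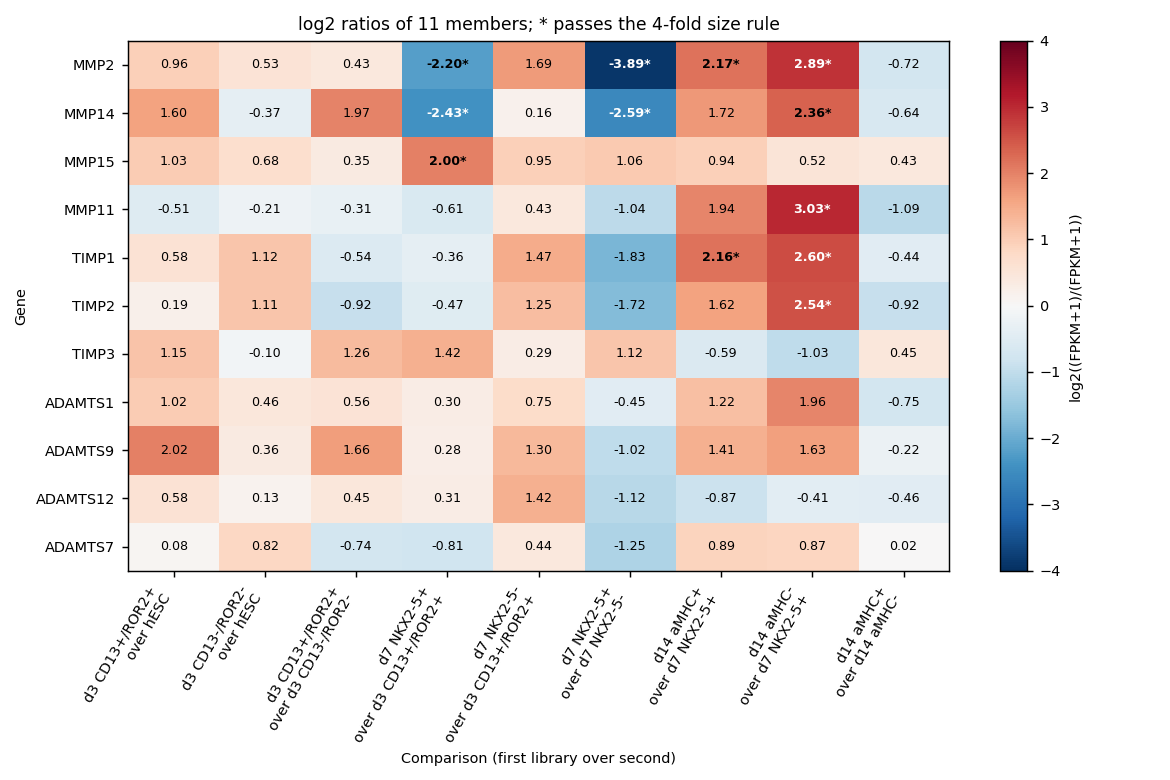
Log2 ratios, (FPKM + 1) over (FPKM + 1), of the 11 abundant members (rows) in the 9 pairs of libraries (columns); asterisks mark ratios that pass the 4-fold rule. MMP2 ran from -3.89 for day 7 NKX2-5+ over NKX2-5- to 2.89 for day 14 aMHC- over day 7 NKX2-5+, and no member passed in the day 14 pair or in the 3 day 3 columns.

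From day 7 NKX2-5+ to day 14 aMHC+, MMP2 (log2 ratio 2.17) and TIMP1 (2.16) were higher, 2 of 47 members beside 1.75% of all genes, and 0 were lower, beside 0.189%. Neither call held after median-ratio scaling (1.65 and 1.56), where ADAMTS19, listed at 0 in aMHC+, was called lower instead. The all-gene calls went from 408 higher and 44 lower to 209 and 111, and to 119 and 152 when rescaled to the same sum. At 2-fold 6 were higher, with MMP14, TIMP2, ADAMTS1 and ADAMTS9 added (8.09% of all genes), and 0 lower (0.714%). The 10 fibroblast and matrix markers summed to 465 FPKM in aMHC+ (9 at 1 FPKM or more), against 76.1 in day 7 NKX2-5+. DDR2 went the other way (0.573 against 1.60), and the part of these markers in the differences was not tested.

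From day 7 NKX2-5+ to day 14 aMHC-, 5 of 47 members were higher, beside 2.91% of all genes, and 0 lower, beside 0.331%. They were MMP11 (log2 ratio 3.03), MMP2 (2.89), TIMP1 (2.6), TIMP2 (2.54) and MMP14 (2.36). After median-ratio scaling MMP11 (2.67) and MMP2 (2.17) kept the call, TIMP1 (1.80), TIMP2 (1.87) and MMP14 (1.77) did not, and ADAMTS19 was called lower. Rescaled to the same sum without small RNA and histone genes, MMP11 (2.46) kept the call and MMP2 (1.81), TIMP2 (1.53), MMP14 (1.47) and TIMP1 (1.42) did not, while ADAMTS19 and TIMP3 were called lower. Over all genes 678 were higher and 77 lower as deposited, 246 and 192 after median-ratio scaling, and 137 and 271 when rescaled to the same sum. At 2-fold 7 were higher (11.7% of all genes) and TIMP3 alone was lower (0.916%). The fibroblast and matrix markers summed to 909 FPKM in aMHC- (10 of 10 at 1 FPKM or more). The largest were COL3A1 (409), COL1A1 (256) and FBLN1 (114), while DCN was at 1.44, DDR2 at 1.58, PDGFRB at 6.59 and LUM at 7.10. In day 7 NKX2-5- DCN and LUM were higher (28.8 and 93.7) but COL3A1 and FBLN1 lower (224 and 50.7), so like sums need not stand for like cells. The part of these markers was again not tested.

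Within day 14, 0 members differed 4-fold between aMHC+ and aMHC- (0.159% of genes higher, 0.086% lower). These were 37 genes higher and 20 lower, and 41 and 20 after median-ratio scaling. With small RNA and histone genes left out and the rest rescaled to the same sum, the counts were 14 and 0. At 2-fold MMP11 was lower in aMHC+ (0.284% of all genes) and 0 members were higher (0.426%). Of the 11 abundant members, MMP15, TIMP3 and ADAMTS7 had the higher level in aMHC+ and the other eight in aMHC-. For ADAMTS7 the values were 3.89 and 3.83 FPKM, and for ADAMTS9, at 13.9 and 16.3, the order turned when libraries were rescaled to the same sum (12.0 and 11.9). The same signs for MMP15 and TIMP3 were seen on day 7, at wider ratios. The fibroblast and matrix markers summed to 465 FPKM in aMHC+ and 909 in aMHC-. DCN went the other way (1.97 and 1.44), and the part of these markers in the member ratios was not tested.

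Related genes on a list of 54 were read with the same rule. In the day 7 pair 0 were higher and 9 lower in NKX2-5+ (0.434% and 1.16% of all genes). The median log2 ratio over the list was -0.62, beside -0.07 for all genes and -0.41 for genes that reached 5 FPKM in any library. From day 3 CD13+/ROR2+, 10 were higher and 2 lower in day 7 NKX2-5- (1.37% and 0.941% of all genes), and 5 higher and 5 lower in day 7 NKX2-5+ (1.06% and 2.2%). From day 7 NKX2-5+, 3 were higher and 0 lower in day 14 aMHC+ (1.75% and 0.189%), and 6 higher and 1 lower in day 14 aMHC- (2.91% and 0.331%). Over hESC, 4 were higher in day 3 CD13+/ROR2+ (1.13%) and 1 in CD13-/ROR2- (0.357%), 2 were higher in the positive fraction of the day 3 pair (0.933%), and 0 were lower in each of these pairs; the day 14 pair had 0 either way. The lower ones of the day 7 pair included the MMP substrates COL3A1 (14.4 against 224 FPKM), COL1A1 (24 against 315) and COL1A2 (12.8 against 95.0), and PCOLCE (2.17 against 35.5), which enhances procollagen C-propeptide removal. They also included TFPI2 (2.17 against 12.9), a serine protease inhibitor of the matrix.

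In the plasminogen system, which activates several MMP precursors, the tissue activator gene PLAT was at 0.673 FPKM or less in hESC, day 3 and day 7 NKX2-5+ libraries. PLAT stood at 8.51 in day 7 NKX2-5-, 29.7 in day 14 aMHC+ and 60.8 in day 14 aMHC-. SERPINE2, which encodes an inhibitor of such activators, was highest on day 3, where CD13+/ROR2+ reached 225 FPKM, CD13-/ROR2- reached 35.7 and hESC stood at 6.07. The urokinase gene PLAU stayed at 1.84 FPKM or less and plasminogen itself (PLG) at 1.02 or less.

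Other brakes and substrates differed from TIMP1 and TIMP2 in their order. A2M was, like TIMP3, highest in day 7 NKX2-5+ and next in day 14 aMHC+. A2M, the broad protease inhibitor alpha-2-macroglobulin, was at 18.2 FPKM in day 7 NKX2-5+, 6.04 in day 7 NKX2-5-, 8.64 in day 14 aMHC+ and 2.84 in day 14 aMHC-, and at 0.0557 or less before. RECK, a membrane-bound MMP inhibitor, varied little, from 1.04 to 2.69 FPKM. HAPLN1, which links versican to hyaluronan, was at 50.6 FPKM in day 3 CD13+/ROR2+ and 14.6 in day 7 NKX2-5- and at 1.81 or less elsewhere. Of 10 ADAM proteases, ADAM19 was called higher in day 3 CD13+/ROR2+ than in hESC (18.4 against 1.91 FPKM). From that day 3 fraction to day 7 NKX2-5+ (3.84 FPKM) ADAM19 was called lower. ADAM12 was called lower in day 7 NKX2-5+ than in NKX2-5- (0.422 against 5.16 FPKM). Of the 6 ADAMTS-like and papilin genes, 0 passed in any of the 9 pairs.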

How the data were processed

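RNA of 7 libraries, 1 per group, was sequenced; the labels' protocols describe a double sort, column extraction and a TruSeq RNA v2 kit with single reads of 50 bases. The authors deposited FPKM values per gene symbol, and per the submitters' processing notes Cufflinks and build hg19 were used; the sources used here name no version, aligner or annotation. Of 23368 rows, 106 were blank in all libraries and left out. An exact 0 can be a failed estimate, so no fold is given against one.

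Groups were taken from the labels. Members were matched by symbol, and log2 ratios used a pseudocount of 1 FPKM, which understates differences of low genes. Quotients in the text are plain FPKM quotients. Members with at least 5 FPKM in any library were named with all 7 values, those from 1 to 5 with their highest value or range. Relative depth is the most frequent ratio of values under 0.3 FPKM. The members, the related lists and the marker lists were chosen with earlier results of these data known. COL1A1, COL1A2 and COL3A1 stand on both the related list and the fibroblast and matrix marker list. Values of 1 gene on the related list are not reported here. Alternatives were pseudocounts of 0.1 and 5, no minimum, median-ratio scaling over 7780 genes, rescaling without 1732 small RNA and histone symbols, and, chosen after seeing the data, a 2-fold rule and no calls for genes at 0. Scripts ran under Python 3.11.15 with pandas 2.3.3 and numpy 2.4.6. Overlaps were read from GENCODE v29 and gene order from RefSeq (GRCh38.p14), a build other than that of the file, so no gene coordinates are given beyond the RefSeq promoters.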

Additional observations from a re-analysis of the deposited data

How the results depend on the processing

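No result has a replicate, and values under about 1 FPKM rest on few reads. The counts of called members depended on the pseudocount and on the scaling; the cause was not tested. With a pseudocount of 5 the counts were 0 for day 7 NKX2-5+ over day 3 CD13+/ROR2+ (3 as reported), 1 for the day 7 pair (2), 0 for day 14 aMHC+ over day 7 NKX2-5+ (2) and 2 for day 14 aMHC- over day 7 NKX2-5+ (5). With a pseudocount of 0.1 the day 3 pair gave 1 (0), MMP14. Without a minimum, day 3 CD13+/ROR2+ over hESC gave 1 (0), ADAMTS9, and day 14 aMHC+ over day 7 NKX2-5+ gave 4 (2).

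With median-ratio scaling the day 14 steps from day 7 NKX2-5+ gave 1 for aMHC+ and 3 for aMHC-. Rescaled to the same sum without small RNA and histone genes they also gave 1 and 3, and the day 3 pair gave 1. The 3 were MMP11, MMP2 and ADAMTS19 under the first and MMP11, ADAMTS19 and TIMP3 under the second. That rescaling raised the day 7 NKX2-5+ sums to 63.6 FPKM for MMPs (37.8), 72.3 for TIMPs (43.0) and 43.3 for ADAMTS genes (25.7), while the other family sums moved by under 1.5 times under both scalings. The 2-fold rule gave 3 and 2 for the day 3 fractions over hESC, 2 for the day 3 pair, 5 for day 7 NKX2-5- over day 3 CD13+/ROR2+, 9 for the day 7 pair, 6 and 8 for the day 14 steps and 1 for the day 14 pair, each by its looser threshold. Leaving out genes at 0, done on the deposited values alone, changed no count of members. It does not cover the ADAMTS19 call in day 14 aMHC+ after either scaling, which rests on a listed 0. No paired analysis was possible because each group has 1 library and the labels give no replicate numbers; for the same reason no replicate could be left out.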
